A study of Homo sapiens with 10 samples.

Results

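Nonsense-mediated decay (NMD) transcripts are transcripts whose annotated open reading frame ends at a stop codon with exon junctions downstream of it. The annotation therefore classes them as substrates of mRNA surveillance. Members were the rows of that biotype with a mean FPKM (fragments per kilobase, a level corrected for transcript length and library total) of at least 0.5 over the 4 libraries of a deposited table. The inhibitor table held 4080 members among 5719 NMD transcripts and 62929 transcripts of every biotype. The WT table held 4588 of 6827 NMD transcripts (72555 transcripts in all), and the K56A table held 4737 of 7110 (74761 in all). In total 5613 transcripts of 82456 listed were members in at least 1 table, and 3258 were members in all 3. They were thus chosen by a measured value, the mean level over both groups of a table, and their levels are given as a description. Just inside the threshold in the inhibitor table lay ZNF655-206, with a mean of 0.5004 FPKM, and just outside it FGFR1-222, with 0.4997. Between 0.5 and 0.55 FPKM there were 188 members in that table, and between 0.45 and 0.5 there were 175 NMD transcripts left out.

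HCT116, the source of the libraries, is an established cell line from a human colorectal carcinoma, used here in a study whose title links DOT1L, CDK9 methylation and the repair of DNA double-strand breaks. The inhibitor experiment compared cells of control genotype given the solvent DMSO with the same cells given EPZ, that is EPZ-5676 (10 µM, 72 h), which inhibits the histone H3 methyltransferase DOT1L. In the knockdown experiment every line carries an shRNA against CDK9 (shCDK9), including EV, with no treatment, and the other 2 lines also express CDK9 again, either wild type (WT) or with alanine in place of lysine 56 (K56A). CDK9 is the kinase of P-TEFb and drives RNA polymerase II from pausing into elongation. The labels do not expand EV and do not say whether a line is 1 clone. Each of the 5 groups has 2 libraries, and the EV libraries stand in both knockdown tables, so the comparisons of WT and of K56A with EV share their control samples.

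NMD couples translation to mRNA decay. A ribosome that stops upstream of an exon junction complex, the protein mark that splicing leaves near exon boundaries, lets the helicase UPF1 meet UPF2 and UPF3 and recruit the SMG nucleases and decay adaptors. Many splicing regulators, SR proteins and hnRNPs above all, limit their own amount by splicing their transcripts into NMD forms with a poison exon or with an intron removed downstream of the normal stop. NMD transcripts are usually kept low by their decay, so their level in RNA-seq reflects both how much is made and how fast it is removed.

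The following sequences show what ends the reading frame in 10 members to which the results below return. Each is the coding sequence from the start of the exon that holds the annotated stop codon (for SRSF6-202 and SRSF7-208, the last 150 bases of it), 5′ to 3′, with the stop codon in capitals. They were read from the GENCODE 29 transcripts (GRCh38). In PDIA3-202, SRSF6-202, SFPQ-206 and IQGAP1-218 the stop lies in an exon that overlaps no exon of a protein-coding transcript of the gene.
PDIA3-202: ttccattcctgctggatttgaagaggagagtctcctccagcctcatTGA
SRSF6-202: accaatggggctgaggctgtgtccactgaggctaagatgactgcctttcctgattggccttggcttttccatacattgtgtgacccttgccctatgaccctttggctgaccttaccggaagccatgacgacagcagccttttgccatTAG
SFPQ-206: gtaagaatgattgatgttggcTGA
IQGAP1-218: ttctgtgctttcctacagTGA
In HNRNPA1-205 and HNRNPA2B1-203 the stop is one that a protein-coding transcript also uses, and the exon junctions follow it.
HNRNPA1-205: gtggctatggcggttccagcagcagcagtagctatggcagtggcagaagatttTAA
HNRNPA2B1-203: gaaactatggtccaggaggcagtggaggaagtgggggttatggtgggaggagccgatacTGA
In RPS3-216 and RPS3-218 the stop lies in an exon shared with a protein-coding transcript, and in SRSF7-208 and MRPS7-206 in an exon that only overlaps one.
RPS3-216: aacacagaatgttcttggTGA
RPS3-218: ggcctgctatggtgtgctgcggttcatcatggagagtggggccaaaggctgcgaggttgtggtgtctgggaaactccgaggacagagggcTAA
SRSF7-208: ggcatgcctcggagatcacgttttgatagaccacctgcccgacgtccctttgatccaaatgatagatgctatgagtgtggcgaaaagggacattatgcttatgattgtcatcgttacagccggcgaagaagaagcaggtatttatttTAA
MRPS7-206: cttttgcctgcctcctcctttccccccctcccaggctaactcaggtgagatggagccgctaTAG

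Most epithelial markers were expressed: 9 of 11 were above 1 FPKM in every table, with CDX1 and VIL1 at 0 or unlisted. Their sums lay between 1830 and 2890 FPKM. Immune and endothelial marker sums stayed below 1 FPKM. Fibroblast marker sums were 19.4 to 23.2 FPKM in the inhibitor table and 27.6 to 36.3 in the knockdown tables, where 1 of 6 markers exceeded 1 FPKM in every table. CDK9 lay between 16.3 and 19.5 FPKM for EV, at 2976 and 3060 FPKM for WT and at 2499 and 2609 FPKM for K56A. In the inhibitor libraries, without the shRNA, it was at 43.88 and 37.56 FPKM with DMSO and 41.91 and 38.48 with EPZ. The WT and K56A lines therefore hold CDK9 RNA far above that level. DOT1L also differed between the lines, at 324 and 343 FPKM for EV, 578 and 568 for WT, and 733 and 702 for K56A. In the inhibitor libraries it was far lower, at 12.59 and 12.55 FPKM with DMSO and 10.66 and 10.35 with EPZ. The EV line thus differs from the DMSO cells in DOT1L as well, and the reason was not tested. One library stands apart: DMSO replicate 1 had 550 of 4080 members at 0 (13.5%), against 171 to 210 in the other 3 libraries of that table. The tables hold no counts, so depth is unknown and no counting interval can be given.

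Members were spliced, medium-length transcripts with short reading frames. Of the 5613 members, 4893 matched a GENCODE 29 transcript by identifier, ends and biotype, 587 identifiers were not found there, 113 had other ends and 20 another biotype. The 4887 with an annotated stop had a median of 8 exons, 1386 bases and 309 coding bases. A median of 3 exon junctions followed the stop, and the last of them lay a median of 375 bases away (quartiles 177 and 818.5). That distance was over 50 bases in 4859 transcripts (99.4%), which the annotation's own definition of the class sets. The reading frame was incomplete at its 5′ end in 1333 (27.2%).

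The position of the stop separated 4 main kinds of member. In 2121 (43.4%) the stop lay in an exon shared with a protein-coding transcript. Whether the reading frame differed there was not tested. In 1166 (23.9%) the exon only overlapped one of a coding transcript, as an alternative splice site or a retained stretch gives. In 981 (20.1%) the exon overlapped no exon of a coding transcript, the arrangement of a poison exon, and in 511 (10.5%) the stop was one that a coding transcript uses, with junctions downstream. Another 108 (2.21%) belong to genes without a coding transcript in the annotation.

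**Figure D1:**
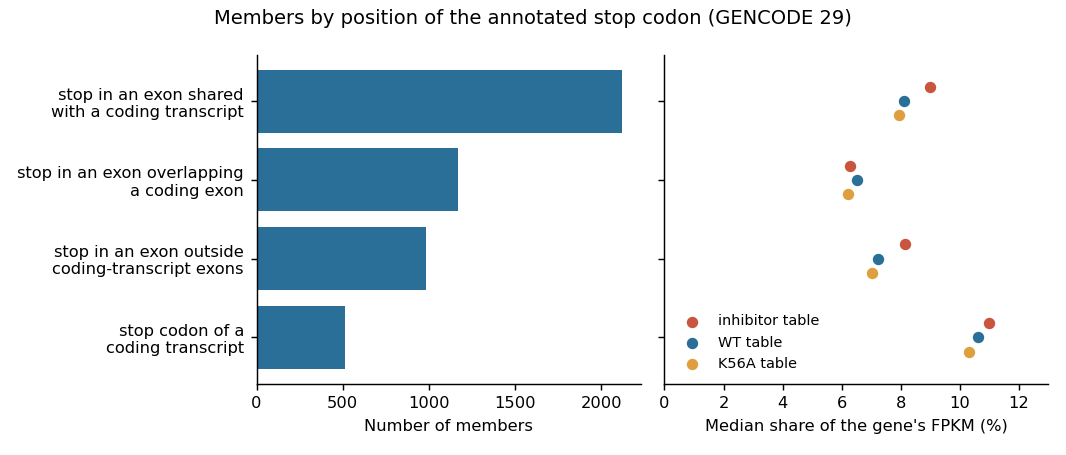
Left, number of members (x axis) by position of the annotated stop codon (y axis). Right, median share of the gene's FPKM held by members of each kind, in percent, in the 3 tables. Members that keep a coding transcript's stop had the largest median shares (10.3% to 11%) and those with a stop in an overlapping exon the smallest (6.23% to 6.51%), and the 108 members of genes without a coding transcript are not drawn.

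Among the 4 main kinds, members with the stop of a coding transcript had the largest median share of their genes' FPKM. Their median share was 11% in the inhibitor table, 10.6% in the WT table and 10.3% in the K56A table. Members with a stop in an overlapping exon had median shares of 6.27%, 6.51% and 6.23% in the same order. Median levels differed little among the kinds, from 1.31 to 1.92 FPKM over these 4 in the inhibitor table. Members with a stop outside coding exons held 16.0% to 17.9% of all member FPKM, and those with a shared exon 37.1% to 40.2%.

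Most members were scarce, and a few were abundant. Their levels rest on the authors' split of fragments among transcripts that share exons, an estimate for which the tables give no error. The median member had 1.51 FPKM in the inhibitor table, 1.46 in the WT table and 1.43 in the K56A table, and 309, 292 and 287 members exceeded 10 FPKM. The 10 most abundant held 11.8%, 10.8% and 10.6% of all member FPKM. A median member made up 8.32%, 7.55% and 7.35% of the summed FPKM of its gene, yet 225, 209 and 213 members made up more than 50%. Members together held 11% to 11.4% of the FPKM of their genes in all libraries. Of the 2875 genes with a member in the inhibitor table, 2038 had a single one (70.9%), and DMKN had the most, with 8 there and 12 in the K56A table.

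PDIA3, a disulfide isomerase of the endoplasmic reticulum, gave the most abundant member. PDIA3-202 (chr15:43746453-43771545, plus strand) has 14 exons, and its stop lies in exon 2 with 12 junctions after it. It was at 275 and 327 FPKM with DMSO and 317 and 344 with EPZ. In the knockdown libraries it was at 589.5 and 599 for EV, 576 and 597 for WT and 581 and 603 for K56A. The groups of each experiment overlap, and the transcript held 75.4% to 81.1% of the gene's FPKM in all 10 libraries. A second member of the gene, PDIA3-204, held 12.1% to 20.7%. In the deposited values most PDIA3 signal therefore lies in transcripts annotated as decay substrates.

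COX6C-207, from the gene of a subunit of cytochrome c oxidase, took a similar part of its gene, 74.3% to 89.7%. It was at 173 and 216 FPKM with DMSO, 223 and 209 with EPZ, 124 and 116 for EV, 121 and 125 for WT and 112 and 120.2 for K56A. The groups overlap in every pair but K56A and WT. Its stop is a coding transcript's own, and 2 junctions follow it.

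RPS3, a protein of the small ribosomal subunit, had 2 members among the 8 most abundant. RPS3-218 (chr11:75399530-75405692) was at 398 and 305 FPKM with DMSO, 265 and 180.4 with EPZ, 205 and 206 for EV, 212 and 227 for WT and 221 and 223 for K56A. Both EPZ values lie below both DMSO values, with a log2 difference of -0.67 ± 0.24 (SE) that did not pass the test (limma, adjusted p = 0.886). Both EV values lie below all WT and K56A values. These log2 differences were 0.10 ± 0.05 for WT and 0.11 ± 0.03 for K56A (limma, adjusted p = 0.809 and 0.624, not passed). RPL13-210, from a gene of the large subunit, was at 169 and 147 FPKM with DMSO, 142 and 158 with EPZ, 96.8 and 105 for EV, 104 and 105 for WT and 92.3 and 96.2 for K56A, which is 6.98% to 10.1% of the gene. RPS3, RPL13, HNRNPA1, FTH1, ACTG1, ENO1 and NPM1 have processed pseudogenes close to identical to their mRNAs, so their values are uncertain to the extent that the authors' counting split reads among copies.

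**Figure D2:**
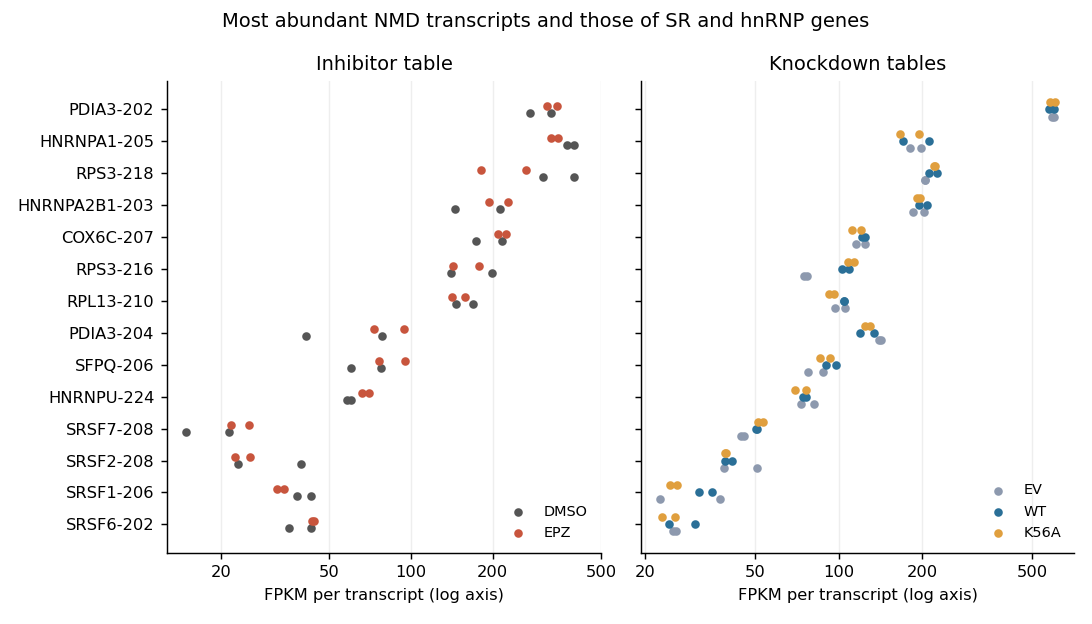
FPKM per library (x axis, log scale) of the 8 most abundant members and the 4 most abundant members of the SR and the hnRNP lists (y axis), for the inhibitor table on the left and the knockdown libraries on the right. Each point is 1 library. RPS3-216 (75 and 76.8 for EV), RPS3-218 and SRSF7-208 have EV points below all WT and K56A points. PDIA3-202, HNRNPA2B1-203 and SRSF2-208 overlap in every pair of groups of an experiment.

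Over all genes, members made up 2.87% to 3.12% of a library's FPKM, and 11% to 11.4% of the FPKM of genes with a member. SR proteins, which bind exonic enhancers and promote exon inclusion, had 16 members in 12 of 14 listed genes in the inhibitor table, 18 in the WT table and 19 in the K56A table. These members held 15.4% to 18.5% of the FPKM of the SR genes in the inhibitor libraries and 20.2% to 22% in the knockdown libraries. In hnRNP and other splicing regulator genes, members held 14.3% to 15.0% in the inhibitor libraries and 12.4% to 13.7% in the knockdown libraries. HNRNPA1-205 and HNRNPA2B1-203 were the most abundant of them over the 10 libraries. Each of these shares is over all genes of the list. Genes of NMD factors held 0.587% to 1.60% in members, those of the exon junction complex 3.12% to 8.01%, and those of cytoplasmic decay enzymes 3.38% to 4.21%. The 2 experiments were not tested against each other.

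SRSF7-208 has its stop in an exon of 1127 bases that overlaps an exon of a coding transcript. It was at 14.9 and 21.4 FPKM with DMSO, 21.7 and 25.4 with EPZ, 44.6 and 45.5 for EV, 50.3 and 50.8 for WT and 53.5 and 51.3 for K56A. The EV values lie below all 4 WT and K56A values, with log2 differences of 0.17 ± 0.05 for WT and 0.22 ± 0.06 for K56A (limma, adjusted p = 0.699 and 0.599, not passed). Its share of SRSF7 was 37.1% and 37.4% for EV and 44.4% and 41.8% for K56A. In the authors' deposited table the K56A comparison gives it a log2 change of 0.18 with an adjusted p of 0.028.

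SRSF6-202 carries a poison exon of 268 bases, shown above, and 4 junctions follow its stop. It was at 35.5 and 42.7 FPKM with DMSO, 43.9 and 43 with EPZ, 25.9 and 25.3 for EV, 24.5 and 30.4 for WT and 25.7 and 22.9 for K56A, or 22.8% to 32.4% of the gene. SRSF2-208, whose normal stop is followed by 2 junctions, was at 39.2 and 23.1 FPKM with DMSO, 22.4 and 25.6 with EPZ, 38.6 and 50.6 for EV, 39 and 41.3 for WT and 39 and 39.2 for K56A. For SRSF2-208 the groups of each experiment overlap, and for SRSF6-202 only both EPZ values lie above both DMSO values. SRSF1-206, from the gene of the founding SR protein, was at 38 and 42.9 FPKM with DMSO and 34.1 and 32.1 with EPZ, and the EV libraries (22.7 and 37.3) enclose all 4 WT and K56A values.

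HNRNPA1-205 and HNRNPA2B1-203 share their stop with a coding transcript and have 2 junctions after it. HNRNPA1-205 (chr12:54280748-54287088) was at 375 and 398 FPKM with DMSO, 347 and 328 with EPZ, 180.3 and 198 for EV, 171 and 211 for WT and 167 and 196 for K56A. Both EPZ values lie below both DMSO values, with a log2 difference of -0.20 ± 0.09 (limma, adjusted p = 0.886), and the knockdown groups overlap. HNRNPA2B1-203 was at 146 and 213 FPKM with DMSO, 194 and 227 with EPZ, 186 and 204 for EV, 196 and 209 for WT and 192 and 197 for K56A, which is 34.3% to 42.5% of its gene. SFPQ-206, from the gene of a paraspeckle and splicing factor, was at 60 and 77.5 FPKM with DMSO and 76 and 94.8 with EPZ, and HNRNPU-224 at 58 and 60.3 with DMSO and 65.7 and 70.3 with EPZ. All members of these 2 lists missed the test in all 4 comparisons.

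The summed level of the NMD transcripts differed little between groups. All listed NMD transcripts together made up 3.01% and 3.02% of the summed FPKM with DMSO and 2.96% and 3.01% in EPZ (exact permutation test over libraries, two-sided, p = 0.667). Members alone made up 2.94% and 2.933% with DMSO and 2.874% and 2.924% in EPZ. Both EPZ values are then the lower ones (exact permutation p = 0.33). In the WT table all listed NMD transcripts made up 3.05% and 3.13% in EV and 3.10% and 3.08% in WT. The WT values thus lie between the EV values (exact permutation p = 1). In the K56A table all listed NMD transcripts made up 3.06% and 3.14% in EV and 3.22% and 3.24% in K56A. The K56A values lie above both EV values by 0.121 percentage points on average, with an exact permutation p of 0.33, the smallest that 2 against 2 libraries allow. Over transcripts listed in both knockdown tables, K56A (3.17% and 3.19%) was also above WT (3.07% and 3.05%), by 0.12 points (exact permutation p = 0.33).

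The difference between K56A and EV was smaller when mitochondrially encoded genes, which differ between the lines, were left out of the sum. Mitochondrially encoded genes took 27.9% and 27.5% of the FPKM for EV and 25.3% and 25.4% in K56A. Without them, NMD transcripts made up 4.25% and 4.34% in EV and 4.30% and 4.34% in K56A, a difference of 0.0303 points (exact permutation p = 0.667). K56A and WT then differed by 0.0497 points (exact permutation p = 0.33). For EPZ against DMSO the difference turned from -0.0302 to 0.027 points (exact permutation p = 1), beside mitochondrial shares of 17.3% and 17.6% in DMSO and 18.4% and 19.3% in EPZ. Because RNA came from whole cultures, a change in the share of cells that hold a transcript and a change in its amount per cell cannot be told apart.

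**Figure D3:**
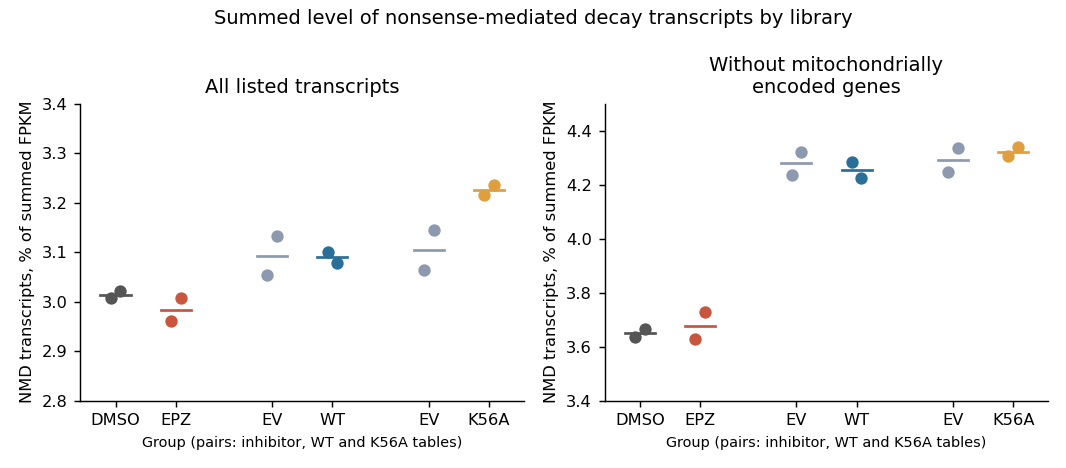
Summed FPKM of all listed NMD transcripts as a percent of the summed FPKM of a library (y axis, not starting at 0), by group (x axis), with all transcripts on the left and without mitochondrially encoded genes on the right. Points are libraries and bars group means. The K56A libraries (3.22% and 3.24%) lie above EV on the left, and between and beside the EV libraries on the right.

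No member passed the test in any of the 4 comparisons, either for its level or for its share. The level was tested with limma on log2(FPKM + 0.5) over all transcripts with a mean of at least 0.5 FPKM. The share was tested on the log2 ratio of the transcript to the other transcripts of its gene, with the same 0.5 added to both, so fold changes of low transcripts are understated. For the level, 0 of 4080 members passed for EPZ against DMSO (0% of all 50910 transcripts tested), 0 of 4588 for WT against EV (0.00356% of 56245), 0 of 4737 for K56A against EV (0.00353% of 56706) and 0 of 4259 for K56A against WT (0.0018% of 55532). For the share no member passed either, against 0%, 0%, 0% and 0.00388% of all transcripts tested. The smallest adjusted p of a member was 0.503, 0.433, 0.262 and 0.417 for the level and 0.862, 0.703, 0.34 and 0.999 for the share, in the same order.

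At an unadjusted p under 0.05 in limma, members were found at nearly the rate of all transcripts in the knockdown lines and somewhat above it for EPZ. Their number was 290 for EPZ (7.11%, against 5.47% of all transcripts), 304 for WT (6.63%, against 6.69%), 343 for K56A against EV (7.24%, against 7.28%) and 247 for K56A against WT (5.80%, against 6.04%). For the share it was 238 (5.94%, against 5.32%), 232 (5.15%, against 5.56%), 273 (5.87%, against 5.95%) and 188 (4.49%, against 4.7%). The median log2 change of the members' level was 0.028, 0.014, 0.050 and 0.027, and that of all transcripts 0.022, 0.012, 0.035 and 0.020.

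Groups that do not overlap were about as frequent among members as among all transcripts. For EPZ against DMSO, 790 members were higher in both EPZ libraries (19.4%, against 18.4% of all transcripts) and 680 lower (16.7%, against 17.2%). For WT against EV, 793 were higher (17.3%, against 18.9%) and 718 lower (15.6%, against 17%). For K56A against EV, 969 were higher (20.5%, against 21.6%) and 685 lower (14.5%, against 15.7%). For K56A against WT, 809 were higher (19.0%, against 20.1%) and 637 lower (15.0%, against 16.6%).

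**Figure D4:**
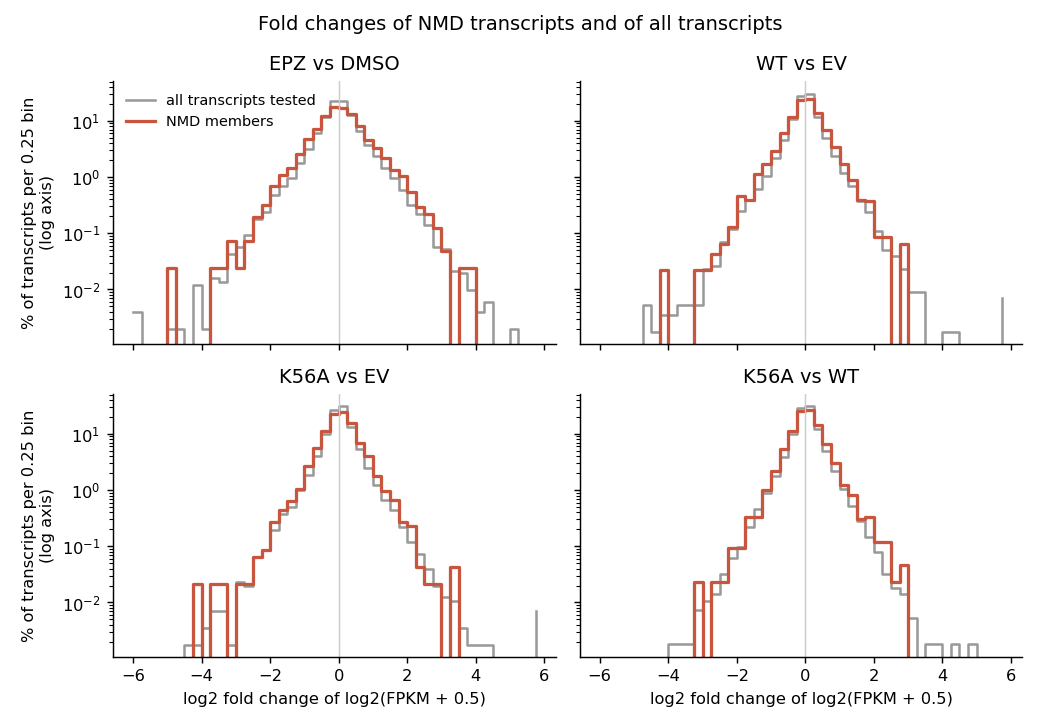
Share of transcripts (y axis, percent per bin of 0.25, log scale) by log2 fold change (x axis, on the log2(FPKM + 0.5) scale) for members and for all transcripts tested, members included, in the 4 comparisons. Values beyond 6 are drawn in the outermost bins. The members' curve is slightly wider than that of all transcripts and centred at the same place, with medians of 0.028, 0.014, 0.050 and 0.027.

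Replicates differed more for members than over all transcripts tested, members included, but members also had lower levels. Their median was 1.51, 1.46 and 1.43 FPKM in the inhibitor, WT and K56A tables, against 2.085, 2.022 and 2.019 over all transcripts tested. The sets were not matched for level. For members, the median difference between the 2 libraries of a group was 0.59 in DMSO, 0.42 in EPZ, 0.39 in EV, 0.36 in WT and 0.33 in K56A on the log2(FPKM + 0.5) scale. Over all transcripts tested it was 0.44, 0.30, 0.28, 0.25 and 0.23. At least 1 library was at 0 for 23.4% of members in the inhibitor table (15.3% of all transcripts), 12.7% in the WT table (8.26%) and 12.2% in the K56A table (7.57%). The median size of the log2 change between EPZ and DMSO was 0.45 for members of 0.5 to 1 FPKM and 0.21 for those of at least 10 FPKM. Changes above 1 on that scale were found in 637 members for EPZ (15.6%, against 10.8% of all transcripts), 348 for WT (7.59%, against 5.32%), 318 for K56A against EV (6.71%, against 5.13%) and 210 for K56A against WT (4.93%, against 3.94%).

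The authors' deposited tables, which hold their own tests per transcript (edgeR for the inhibitor and DESeq2 for the knockdown lines), make calls among the members at an adjusted p under 0.05. For EPZ they call 62 members (1.52%, against 0.904% of all transcripts of at least 0.5 FPKM), 32 higher (0.44% of all transcripts) and 30 lower (0.464%). A group was entirely at 0 for 55 of these 62 (88.7%, against 79.6% of the calls over all transcripts), out of 69 members with such a group. For WT they call 131 members (2.86%, against 2.58%), with 69 higher (1.08% of all transcripts) and 62 lower (1.5% of all transcripts). Of these 131, 38 had a group at 0 (29%, against 22.6%). For K56A against EV they call 152 (3.21%, against 3.17%), with 83 higher (1.35% of all transcripts) and 69 lower (1.81% of all transcripts). Of these 152, 34 had a group at 0 (22.4%, against 16.7%). In both knockdown tables more members were called higher than lower, while over all transcripts more were called lower. The examples taken from these calls below are the most abundant ones above 0 in at least 1 library of each group, and were picked after their values were seen.

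In EPZ-treated cells the members with the smallest p were mostly present in 1 group and absent from the other. For every member at 0 in both libraries of a group, that separation is fixed in advance. A listed transcript exceeds 0 in at least 2 of the 4 libraries. Such a member therefore met the mean of 0.5 FPKM through the other group alone. NDUFA10-245, from the gene of a complex I subunit, was at 15.7 and 12.4 FPKM with DMSO, or 36.7% and 22.5% of the gene, and at 0 in EPZ replicates 1 and 2 (limma, adjusted p = 0.503 for the level). The other NDUFA10 transcripts summed to 27.1 and 42.7 FPKM with DMSO and 53.1 and 47.0 in EPZ. It was also at 0 in 3 of the 6 knockdown libraries, so its absence is not limited to EPZ. In the authors' deposited table its adjusted p is 1.81e-15.

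Other members low in EPZ were FKBP1A-213 (4.0 and 3.6 FPKM with DMSO), EIF3H-211 (3.25 and 2.12) and CD151-218 (11.6 and 2.8), all of them at 0 in EPZ, and NPM1-230 (3.2 and 2.35, against 0 and 0.277). MFSD4B-210 held 54.3% and 50.7% of its gene in DMSO and 3.59% and 3.32% with EPZ, at 1.55 and 1.77 FPKM with DMSO and 0.124 and 0.126 with EPZ. Members high in EPZ were NEPRO-214, ATP6AP2-216, ADD1-215 and TNFRSF10B-207, each at 0 throughout DMSO and at 1.90 to 5.27 FPKM with EPZ. ZDHHC17-209, from the gene of a palmitoyltransferase, was at 0.377 and 0.565 FPKM with DMSO and 3.18 and 4.59 with EPZ, which is 3.24% and 4.19% of its gene with DMSO and 19.3% and 24% with EPZ. RHOT1-206, from the gene of a mitochondrial transport GTPase, was at 0 and 0.906 with DMSO and 5.27 and 5.2 with EPZ. All of these missed the test (limma, adjusted p of at least 0.842).

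In HNRNPA2B1, 2 scarce members differed in opposite directions. HNRNPA2B1-239 was at 6.52 and 4.16 FPKM with DMSO and 0.792 and 0.947 with EPZ, with a log2 difference of -2.06 ± 0.34 (limma, adjusted p = 0.842). HNRNPA2B1-232 had the opposite order, at 0 and 0.596 with DMSO and 4.64 and 5.64 with EPZ, a log2 difference of 2.92 ± 0.49. Each held at most 1.53% of the gene. DNMT1-233, from the gene of the maintenance DNA methyltransferase, was at 0.195 and 0 FPKM with DMSO and 3.07 and 2.83 with EPZ, where it was 5.4% and 5.47% of the gene (limma, adjusted p = 0.842). The authors' deposited table gives it a log2 change of 4.95 with an adjusted p of 0.00963. It was at 4.04 to 6.18 FPKM in all 6 knockdown libraries.

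Among the calls of the authors' deposited inhibitor table with both groups above 0, FTH1-210 was the most abundant. This transcript of the ferritin heavy chain was at 156 and 43.4 FPKM with DMSO and 17.8 and 17.5 with EPZ, so the DMSO libraries differed from each other more than the lower of them differed from EPZ. The authors' deposited table gives a log2 change of -2.49 with an adjusted p of 0.000167, and limma a log2 difference of -2.19 ± 0.62 (adjusted p = 0.872). ACTG1-213 (31.1 and 6.66 FPKM with DMSO, 2.92 and 3.72 with EPZ) and DYNC1H1-255 (27.6 and 0.171 with DMSO and 0.379 and 0.537 with EPZ) were likewise high in a single DMSO library. The authors' deposited table also calls C19orf44-202 lower, and DNMT1-233, REV3L-205 and C2CD3-232 higher. For FTH1-210, ACTG1-213 and DYNC1H1-255 the high value is that of DMSO replicate 1, the library with 550 members at 0, and its part in these calls was not tested.

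With wild-type CDK9 put back, IQGAP1-218 had the smallest p of all members. IQGAP1 is a scaffold protein of the cytoskeleton and of MAP kinase signalling, and this transcript of 39 exons (chr15:90388247-90500854) has its stop in an exon of 48 bases, exon 29. It was at 8.11 and 8.75 FPKM for EV and 1.91 and 1.93 for WT, and at 3.44 and 1.02 for K56A. Both WT values and both K56A values lie below both EV values. The log2 difference between WT and EV was -1.89 ± 0.14 (limma, adjusted p = 0.433), and the share of the gene was 7.53% and 8.06% for EV and 1.64% and 1.66% for WT. The other IQGAP1 transcripts summed to 99.5 and 99.8 FPKM for EV and 114.5 and 114.3 in WT. The authors' deposited table gives a log2 change of -2.15 with an adjusted p of 1.75e-77.

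RPS3-216 was the most abundant of the members with the 5 smallest p in each direction in the knockdown lines. It was at 75 and 76.8 FPKM for EV, 103 and 109 for WT and 113 and 108 for K56A. The 4 values of the lines with CDK9 put back lie above both EV values and overlap each other. The log2 difference from EV was 0.48 ± 0.05 for WT (limma, adjusted p = 0.623) and 0.54 ± 0.05 for K56A (adjusted p = 0.311), with the same EV libraries in both. Its share of RPS3 was 8.04% and 7.63% for EV, 10.1% and 10.4% for WT and 11.2% and 10.6% for K56A. In the authors' deposited tables the log2 changes are 0.47 and 0.51, with adjusted p of 2.39e-08 and 2.22e-13. In the inhibitor libraries it was higher, from 140.8 to 199 FPKM, with the groups overlapping.

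MRPS7-206, from the gene of a protein of the mitochondrial ribosome, was nearly absent from EV. It was at 0 and 0.0931 FPKM for EV, 3.99 and 2.9 for WT and 4.58 and 4.88 for K56A, which is 15% and 11.3% of the gene in WT and 17% and 17.1% for K56A. The log2 difference was 2.84 ± 0.30 for WT and 3.26 ± 0.25 for K56A (limma, adjusted p = 0.623 and 0.262). In the inhibitor experiment it ranged from 0 to 6.03 FPKM within DMSO alone, a spread as wide as the difference between the knockdown lines. CAMTA1-202, from the gene of a calmodulin-binding transcription factor, was higher in both WT libraries than in the other 4 knockdown libraries (1.24 and 1.12 FPKM for EV, 4.23 and 4.06 for WT, 1.31 and 1.35 for K56A). Its log2 difference was 1.47 ± 0.18 between WT and EV (limma, adjusted p = 0.623) and -1.34 ± 0.18 between K56A and WT (adjusted p = 0.638).

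Further members by the same rule for WT against EV were SNX14-204, at 5.78 and 5.13 FPKM for EV and 9.66 and 9.7 for WT, and ANO6-210, at 3.92 and 3.05 for EV and 0.716 and 0.474 for WT. TEAD3-202, from the gene of a transcription factor of the Hippo pathway, held 15.3% and 6.81% of its gene in EV and 46.6% and 49.9% for WT. CPD-203 and SKA3-201 were listed at 0 in both EV libraries, and CCDC189-210, MAD2L1-203 and MRPS25-202 at 0 in both WT libraries. TNFAIP2-205 was at 2.02 and 2.59 FPKM for EV and 0.0483 and 0 for WT. None of these transcripts passed the test (limma, adjusted p of at least 0.623 for the level). Their groups do not overlap, which a choice by smallest p favours. For those at 0 in both libraries of a group it is fixed in advance, as a listed transcript exceeds 0 in at least 2 of the 4 libraries.

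**Figure D5:**
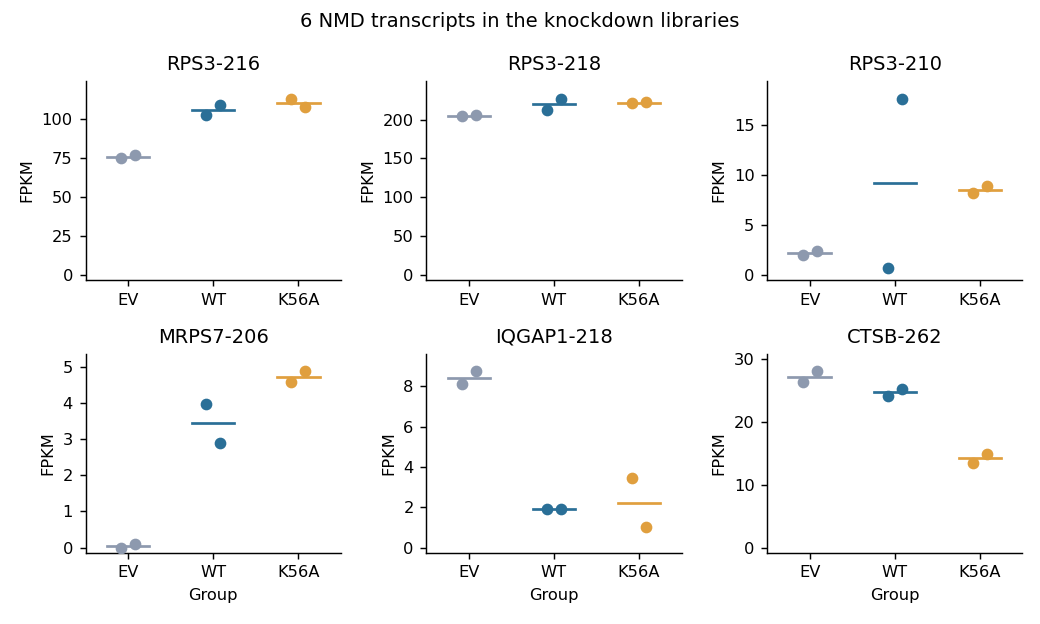
FPKM (y axis) of 6 members in the 6 knockdown libraries, by group (x axis); points are libraries and bars group means, with K56A on the scale of the WT table. RPS3-216 and MRPS7-206 lie higher in WT and K56A than in EV, IQGAP1-218 lies lower in both, CTSB-262 lies lowest in K56A, and RPS3-210 has 1 low and 1 high WT library (0.734 and 17.7).

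With K56A put back, the smallest p among members belonged to SCARB2-218 and MRPS7-206. SCARB2 is a lysosomal membrane protein, and SCARB2-218 was at 4.69 and 5.52 FPKM for EV, at 0 in K56A replicate 1 and at 0.00605 in replicate 2 (limma, adjusted p = 0.262). In WT it was at 3.95 in 1 library and at 0 in the other. RPS3-210, another NMD transcript of RPS3, was at 1.95 and 2.38 FPKM for EV and 8.21 and 8.92 for K56A, a log2 difference of 1.77 ± 0.16 (limma, adjusted p = 0.311). The WT libraries stood at 0.734 and 17.7, on both sides of the other groups.

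CTSB-262, a transcript of the lysosomal protease cathepsin B, was at 26.3 and 28 FPKM for EV, 24.2 and 25.2 for WT and 13.5 and 14.9 for K56A. The K56A values lie below all 4 others. The log2 difference was -0.91 ± 0.09 from EV (limma, adjusted p = 0.35) and -0.78 ± 0.08 from WT (adjusted p = 0.417), and the share of the gene was 12.7% and 13.6% for EV and 7.86% and 8.53% for K56A. In the authors' deposited table the log2 change from EV is -0.97 with an adjusted p of 1.97e-17. In the inhibitor table it was at 0 in DMSO replicate 1 and at 22.6 to 28.3 FPKM in the other 3 libraries.

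ENO1-214, from the gene of the glycolytic enzyme enolase, was at 32.8 and 31.7 FPKM for EV, 24.8 and 23.1 for WT and 22.2 and 21.8 for K56A, with a log2 difference of -0.54 ± 0.07 between K56A and EV (limma, adjusted p = 0.408). The rest of the gene was lower too, at 889.6 and 944 FPKM for EV and 798 and 804 in K56A. CASP9-204, from the gene of the initiator caspase of the mitochondrial pathway, held 0.929% and 5.6% of its gene in EV and 37.7% and 47.1% for K56A, at 0.0476 and 0.257 FPKM for EV and 1.86 and 2.11 for K56A. HDDC2-209, MPP7-208 and STUB1-206 were listed at 0 in both K56A libraries, and CLPB-208 and C17orf49-205 at 0 in both EV libraries. For these members the separation from the other group is again fixed in advance by the rule for listing. PIGS-201 and ELP3-204 were at 0 in 1 EV library each and at 1.67 to 3.92 FPKM for K56A. DYNC1H1-243 was at 11.3 and 11.9 FPKM for EV and 0 and 1.78 for K56A.

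Abundant members called for K56A in the authors' deposited table were 4 higher and 4 lower ones. Besides RPS3-216 and SRSF7-208, FASN-204, from the gene of fatty acid synthase, was at 29.1 and 35.1 FPKM for EV and 45.1 and 55.9 for K56A, and DYNC1H1-249 at 25.1 and 26.9 for EV and 30.2 and 31.3 for K56A. Lower were PDIA3-204 (143 and 139.9 for EV and 125 and 129.5 for K56A), KITLG-206, from the gene of the ligand of the receptor KIT (72.7 and 68.6 for EV and 59.8 and 60.5 for K56A), GLG1-206 and EMC10-207 (35.9 and 37.9 for EV and 22.8 and 28.2 for K56A). In limma none of the 8 passed, with adjusted p from 0.311 to 0.653. For WT against EV the authors' table also calls EMC10-207, ENO1-214, AGPAT5-203 and PKM-223 lower, and DYNC1H1-249, CBWD5-233 and ROCK1-207 higher. CBWD5 has near-identical paralogs, so its value is uncertain.

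K56A and WT were compared over the transcripts listed in both knockdown tables, with EV in the same fit. MRPS25-202, from another gene of the mitochondrial ribosome, was at 1.82 and 3.59 FPKM for EV, 0 in both WT libraries and 3.46 and 2.95 for K56A (limma, adjusted p = 0.607). METTL14-205, from the gene of a subunit of the m6A RNA methyltransferase, was at 2.34 and 2.88 FPKM for EV, 0.887 and 1.05 for WT and 3.77 and 4.09 for K56A, a log2 difference of 1.59 ± 0.19 between K56A and WT (limma, adjusted p = 0.607). In both, EV lies between WT and K56A or beside K56A. IFRD1-220 and CCDC189-210 were likewise at 0 in WT and near 1 FPKM for K56A.

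On the lower side, POLR3E-211, from the gene of an RNA polymerase III subunit, was at 3.47 and 3.48 FPKM for WT and 1.3 and 1.1 in K56A, and ITPRID2-206 at 11.4 and 10.2 for WT and 6.54 and 6.36 for K56A. MPP7-208 was at 3.16 and 2.04 FPKM for WT and at 0 in both K56A libraries. By share, TOP3A-217, TPP2-213 and TPD52-217 were higher and TWF2-207 lower in K56A. CBWD2-202 was at 2.48 and 2.33 FPKM for WT and 4.94 and 4.79 for K56A, and its gene too has near-identical paralogs. None passed the test (limma, adjusted p of at least 0.417 for the level and 0.999 for the share).

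CDK9 has no NMD transcript in the tables. DOT1L has 1, DOT1L-205, which is listed only in the knockdown tables, where the gene is far higher than in the inhibitor libraries (10.35 to 12.59 FPKM). DOT1L-205 was at 2.24 and 3.19 FPKM for EV, 6.12 and 0.753 for WT and 1.46 and 2.27 for K56A. The 2 WT libraries lie on both sides of the other 4, while the other DOT1L transcripts summed to 322 and 339.6 FPKM for EV, 572 and 567.5 for WT and 731.6 and 700.6 for K56A. Its share was 0.691% and 0.932% for EV and 0.20% and 0.323% for K56A (limma, adjusted p = 0.725).

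The machinery that removes these transcripts was measured at the gene level. Of 18 listed NMD factors 17 could be tested, of 9 exon junction complex genes 9, of 21 decay enzymes 19, of 14 SR proteins 13, of 38 hnRNPs and other splicing regulators 38, and of 19 genes known as NMD targets 19. No gene of these lists passed in limma in any comparison, where 0.00713% of all genes passed for EPZ, 0.0668% for WT, 0.0465% for K56A against EV and 0.047% for K56A against WT. At an unadjusted p under 0.05, 5.79%, 11.4%, 12.8% and 11.6% of all genes were found in the same order. At that limit the NMD factors counted 1, 2, 3 and 2 genes, the exon junction complex 0, 2, 1 and 1, the decay enzymes 0, 0, 2 and 2, the SR proteins 0, 0, 2 and 1, the hnRNPs and other regulators 0, 4, 6 and 8, and the known targets 1, 4, 7 and 3. Leaving out 1 library changed the inhibitor count of list genes in some fits and that of all genes in each. Such a fit leaves 1 library in a group, so its calls are not given.

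The exon junction complex genes had median log2 changes of 0.075, 0.047, 0.060 and 0.009 in the same order, the decay enzymes 0.036, 0.010, 0.025 and -0.006, the SR proteins 0.045, 0.007, 0.009 and -0.034, and the hnRNPs and other regulators 0.066, 0.023, 0.014 and -0.027. NMD factors themselves lay close to the median of all genes. Their median log2 change was -0.05 for EPZ, 0.02 for WT, 0.07 for K56A against EV and 0.02 for K56A against WT, and that of all genes 0.00, 0.02, 0.03 and 0.01. DHX34, a helicase that remodels the UPF1 complex, was at 13.9 and 11.7 FPKM with DMSO and 9.73 and 8.55 with EPZ, a log2 difference of -0.46 ± 0.15 (limma, adjusted p = 0.76). Its member DHX34-202 was at 3.94 and 3.34 with DMSO and 2.13 and 1.65 with EPZ, and transcript and gene lie below DMSO in both EPZ libraries. The other NMD factor member in all 3 tables, RUVBL2-208, was at 1.53 and 0.527 with DMSO and 0.44 and 0.183 with EPZ. In the K56A table DHX34 was at 15.8 and 16.4 for EV and 19.3 and 18.4 for K56A, and DHX34-202 at 4.08 and 3.57 for EV and 5.53 and 4.62 for K56A. SMG9, a regulator of the SMG1 kinase, was at 36.4 and 35.9 for EV and 39.5 and 40.5 for K56A (limma, adjusted p = 0.326).

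Genes known as NMD targets had medians above those of all genes in the lines with CDK9 put back, 0.10 for WT and 0.09 for K56A against EV, with 16 and 15 of 19 genes above 0 (84.2% and 78.9%, against 54.7% and 59.2% of all genes). Both use the same EV libraries. GADD45A, a growth arrest gene induced by DNA damage, was at 40.3 and 41.9 FPKM for EV, 49.9 and 56.9 for WT and 60.4 and 54.8 for K56A, with log2 differences of 0.37 ± 0.07 and 0.48 ± 0.06 (limma, adjusted p = 0.15 and 0.0684). It passed for K56A when only genes with a mean of at least 2 FPKM were tested. In that setting 0.395% of all genes tested passed, against 0.0465% in the main fit. DDIT3, a stress-induced transcription factor, was at 16.4 and 14.1 for EV and 18.1 and 19.5 for K56A (adjusted p = 0.278 in limma). For EPZ the list's median was -0.04, and SAT1, the polyamine acetyltransferase, was at 193 and 214 with DMSO and 266 and 288 with EPZ (limma, adjusted p = 0.76). These 19 genes hold only 8 members, in 4 genes.

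Among splicing regulators at the gene level, PTBP1, a repressor of exon inclusion, was at 143 and 151 FPKM for EV and 126 and 128 for WT, and at 147 and 140.4 for K56A (limma, adjusted p = 0.184 for WT against EV). HNRNPC was at 404 and 418 for EV and 357 and 369 for K56A (adjusted p = 0.171 in limma), and SRSF11 at 182 and 185 for EV and 201 and 203 for K56A. The members of the hnRNP list had a median log2 change of 0.22 for EPZ (27 of 40 above 0), 0.08 for WT (29 of 50), 0.20 for K56A against EV (39 of 57) and 0.05 for K56A against WT (26 of 49). Over all members these medians were 0.028, 0.014, 0.050 and 0.027. Those of the SR list had -0.19 (5 of 16), 0.01 (10 of 18), -0.06 (7 of 19) and -0.06 (6 of 18). None of these transcripts passed on its own, and several stand in 1 gene, so they are not independent.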

How the data were processed

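RNA-seq libraries (TruSeq mRNA kit, 150 ng of total RNA each) covered 10 HCT116 samples, and the authors deposited 3 tables of 4 libraries with FPKM per transcript. The submitters' processing notes name the build GRCh38 and, without roles, RSEM 1.3.3, STAR 2.7.1a, DESeq2 1.32.0 and Trim Galore 0.6.6. For the annotation release and any use of strand, the entry is "not given in the sources used here". Each table also holds the authors' own test per transcript, a log2 fold change with a p-value and its adjusted value, made with edgeR (inhibitor) or DESeq2 (both knockdown tables) per the file headers. Summary columns, 4 in number, were not used. A transcript is listed where at least 2 of the 4 libraries of its table exceed 0, and the split of fragments among transcripts that share exons is an estimate for which they give no error. FPKM keep no depth, so the depth per sample is unknown.

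Groups came from the labels, which leave unsaid whether replicates were grown separately, so the spread behind each p-value may be technical. The EV libraries stand in both knockdown tables and differ there by 1 factor per library, so K56A was multiplied by 1.000661 for the fit of K56A against WT and for values set beside WT. Levels (log2 of FPKM + 0.5) and shares (log2 ratio of a transcript to the rest of its gene, 0.5 added to both) were fitted over all transcripts with a mean of at least 0.5 FPKM by limma 3.58.1 (R 4.3.3, with data.table at version 1.17.8) with an intensity trend and Benjamini-Hochberg adjustment at 0.05, after a test on simulated data. Tables and plots used Python 3.11.15, pandas 2.3.3, numpy 2.4.6, scipy 1.17.1 and matplotlib 3.10.9. Stop codons and exons were taken from GENCODE 29 by transcript identifier.

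The transcripts and gene lists were chosen with earlier results of these data known. Named are the 8 most abundant members, per comparison and measure the 5 smallest p in each direction, the 4 most abundant members of the SR, hnRNP and NMD factor lists in all 3 tables, NMD transcripts of DOT1L, and list genes by smallest p; some named by this rule are not reported here. Alternatives were another pseudocount, other filters, totals without mitochondrial genes or without CDK9 and DOT1L, a replicate block and leaving out each library.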

Additional observations from a re-analysis of the deposited data

How the results depend on the processing

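With limma, 0 members passed for level or share under every alternative run: pseudocounts 0.1 and 1, no filter, a mean of at least 2 FPKM, above 0 in every library, no intensity trend, median ratio rescaling, 1 fit of the 6 knockdown libraries, a replicate block and leaving out each library. The same held when genes with over 5% of their FPKM in transcripts of 1 knockdown table were left out, an alternative chosen after seeing the data. All 881 alternative values of the 80 named member results kept their direction and did not pass. Same-numbered libraries did not deviate together (r from 0.007 to 0.063 across transcripts), so they share only a number. With the replicate block, 0 of 4080, 0 of 4588, 0 of 4737 and 0 of 4259 members passed for the level in the order EPZ, WT, K56A against EV and K56A against WT, as without it. Of the 113 list genes, 0 passed for each comparison, except that GADD45A, 1 gene, passed for K56A against EV with a mean of at least 2 FPKM and with the replicate block. In these 2 settings 0.395% and 0.286% of all genes passed. For EPZ, leaving out 1 library gave 0 to 8 list genes, the 8 without DMSO replicate 2. The cause was not tested. The summed NMD share changed sign for EPZ against DMSO without mitochondrially encoded genes (0.027 percentage points) and for WT against EV without CDK9 and DOT1L (0.0147 points), and leaving out 1 library moved the latter comparison between -0.0425 and 0.0355 points. For the other comparisons these ranges were -0.054 to -0.006 (EPZ), 0.081 to 0.161 (K56A against EV) and 0.111 to 0.129 points (K56A against WT). Over member transcripts alone no sign changed. The differences were then -0.0379 (EPZ), -0.00579 (WT against EV), 0.11 (K56A against EV) and 0.113 points (K56A against WT). Each group has 2 libraries, so a left-out library leaves 1, whose spread is taken from the other groups. Depth is unknown, which leaves absence at 0 FPKM without a limit.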
